A study of Ovis aries with 48 samples.

Results

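MIR221 encodes miR-221, a microRNA that is usually counted among those that restrain the formation of fat cells. It was taken by its row name, with earlier results of these data known, and is 1 microRNA beside 104 others in these tables. MicroRNAs are short RNAs that guide Argonaute proteins to partly complementary messenger RNAs and lower the output of those messages. In human and mouse preadipocytes the level of miR-221 falls as the cells turn into adipocytes, and in human cells its known targets include the cell cycle inhibitor CDKN1B and the receptor tyrosine kinase KIT. In human and mouse the gene lies on the X chromosome beside MIR222. MIR222 is in neither the RefSeq sheep annotation nor these tables, so it could not be analysed. In the RefSeq sheep annotation MIR221 is also on chromosome X, inside LOC105605445, a long non-coding RNA (lncRNA), and no other annotated gene overlaps it.

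The small RNA libraries came from fat of 16 female sheep in 2 cohorts, with 4 sheep in each treatment group, 48 libraries in all. In the T cohort, the mothers of prenatal T sheep had testosterone propionate in corn oil injected into muscle 2 times a week from day 30 to day 90 of gestation, at 100 mg (about 1.2 mg/kg), and the control sheep of that cohort have no injection stated. In the BPA cohort, the mothers of BPA sheep had 0.5 mg/kg of bisphenol A in corn oil injected under the skin each day over the same days of gestation, and those of control sheep had corn oil alone. Visceral and subcutaneous fat were taken in both cohorts, and epicardial fat (around the heart) and perirenal fat (around the kidney) in the T cohort only. All sheep were kept alike on a maintenance diet meant to prevent obesity. The labels give no age.

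The libraries held 222537 to 1533680 microRNA reads, of which 200 to 5144 were MIR221 reads (median 1316.5). MIR221 thus made up 0.0838% to 0.725% of the microRNA reads, with a 95% exact binomial interval of 0.0726% to 0.0962% in the lowest library. That interval covers counting error only, and is narrow beside the differences between depots. Levels below are reads divided by 1 size factor per library. The deposited values were scaled within each depot, so depots are compared on values rescaled over all libraries of a cohort, and treatments on the deposited values of 1 depot. Library numbers in the column names fall into an early set (up to 48) and a later set (81 and above), spread unevenly over depots. In the T cohort 7 of 8 subcutaneous, 3 of 8 visceral, 2 of 8 epicardial and 7 of 8 perirenal libraries were early. In the BPA cohort 1 of 8 subcutaneous and 4 of 8 visceral libraries were early. What the numbers mark is not stated.

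MIR221 was highest in subcutaneous fat in every sheep of both cohorts, and in the T cohort it was lowest in epicardial or perirenal fat. In rescaled reads, subcutaneous fat of the T cohort held 3635, 2774, 3277 and 2568 in prenatal T sheep 48, 185, 233 and 255, and 5357, 3744, 2490 and 3512 in control sheep 098, 131, 132 and 201. Visceral fat of the same sheep, in the same order, held 912, 1426, 1262 and 1089 in prenatal T sheep and 2596, 1703, 1423 and 1367 in control sheep. Visceral control sheep 098 was the single library among the 24 of the other depots to reach the subcutaneous range, and that sheep also had the highest subcutaneous value. Epicardial fat held 883, 692, 875 and 628 in prenatal T sheep and 970, 1002, 879 and 936 in control sheep. Perirenal fat held 1325, 745, 516 and 408 in prenatal T sheep and 679, 1162, 576 and 724 in control sheep. The epicardial control libraries lay closest together, with a coefficient of variation of 5.55%, and the perirenal prenatal T libraries lay farthest apart, at 54.7%.

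**Figure D1:**
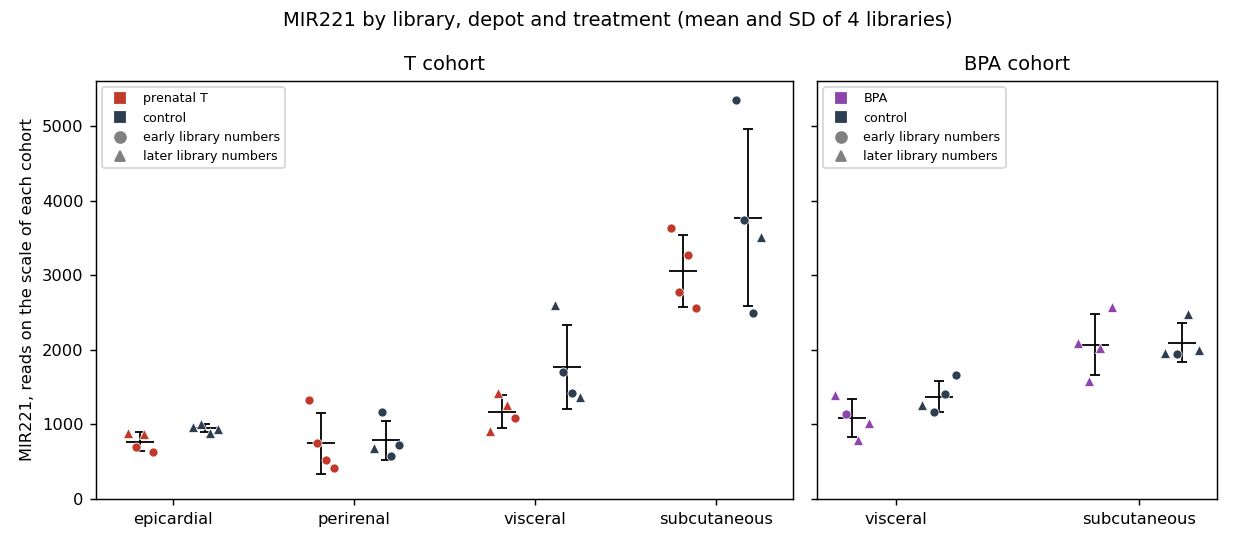
MIR221 in each library, in reads on the common scale of its cohort, by depot and treatment, with prenatal T or BPA left of control. Points are libraries, shaped by library set, and bars are the mean and SD of 4 libraries. Subcutaneous libraries of the T cohort sit between 2490 and 5357, and 1 visceral control library, at 2596, reaches into that range.

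Visceral fat had less MIR221 than subcutaneous fat. It averaged 1172 ± 221 in visceral and 3064 ± 483 in subcutaneous fat of prenatal T sheep (SD, n = 4 each), and 1772 ± 568 in visceral and 3776 ± 1187 in subcutaneous fat of control sheep (SD, n = 4 each). By limma, which shares information on the spread over all microRNAs, the log2 fold change was -1.39 (SE 0.33, adjusted p = 0.00663) in prenatal T sheep, where 22% of the 82 microRNAs tested were called in either direction at an adjusted p under 0.05. In control sheep it was -1.09 (SE 0.28, adjusted p = 0.00626), that is 2.13-fold lower, where 36.4% of 77 microRNAs were called. By p, MIR221 ranked number 7 of 82 in prenatal T sheep and number 11 of 77 in control sheep, among many microRNAs that differed between the depots. Each call was lost when 1 sheep was left out, prenatal T sheep 233 (adjusted p = 0.072) or control sheep 201 (adjusted p = 0.0519), while the log2 fold changes stayed between -1.54 and -0.996. Within the early set of libraries the value in control sheep was -1.24 (adjusted p = 0.0336), and the prenatal T groups held too few libraries of 1 set in both depots for such a fit.

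Epicardial and perirenal fat stood farther from subcutaneous fat. Epicardial fat averaged 769.5 ± 129 in prenatal T sheep and 947 ± 52.5 in control sheep (SD, n = 4 each). Its log2 fold change against subcutaneous fat was -1.99 (SE 0.33, adjusted p = 0.000293) in prenatal T sheep, with 25.6% of microRNAs called, and -1.94 (SE 0.28, adjusted p = 1.73e-05) in control sheep, with 50.6% called. Perirenal fat averaged 749 ± 409 in prenatal T sheep and 785 ± 259 in control sheep (SD, n = 4 each). Against subcutaneous fat the log2 fold change was -2.17 (SE 0.33, adjusted p = 0.000184) in prenatal T sheep, with 18.3% called, and -2.26 (SE 0.28, adjusted p = 9.66e-06) in control sheep, with 28.6% called. MIR221 had the smallest p and the lowest fold change of all microRNAs tested in both perirenal comparisons, at 4.49-fold and 4.8-fold lower than subcutaneous fat. These calls held under each alternative run, library sets included: within the early set the perirenal log2 fold change was -2.17 in prenatal T sheep and -2.23 in control sheep, and the epicardial one was -2.20 in prenatal T sheep. The 4 epicardial control libraries were all of the later set, which left no such fit for epicardial fat of control sheep.

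Among the other depots the differences were smaller and less firmly called. Epicardial fat was below visceral fat at a log2 value of -0.86 (SE 0.28, adjusted p = 0.0478) in control sheep, with 15.6% of microRNAs called, and the call was lost without any 1 of the 4 control sheep (adjusted p 0.0708 to 0.146). In prenatal T sheep that log2 fold change was -0.60 (SE 0.33, adjusted p = 0.523, 2.44% called). Perirenal fat was below visceral fat at a log2 value of -1.18 (SE 0.28, adjusted p = 0.0111) in control sheep, with 7.79% called, and the call was lost without sheep 098, 132 or 201 (adjusted p 0.0548 to 0.0802). In prenatal T sheep the value was -0.77 (SE 0.33, adjusted p = 0.187, 1.22% called). Epicardial and perirenal fat, neighbours in the order, did not differ beyond their spread, with log2 fold changes of 0.17 in prenatal T sheep (SE 0.33, adjusted p = 0.863, 3.66% called) and 0.32 in control sheep (SE 0.28, adjusted p = 0.436, 22.1% called). Their 95% intervals, -0.53 to 0.87 and -0.26 to 0.90, leave room for a difference in either direction. Within 1 library set, epicardial minus visceral fat was -0.42 in prenatal T sheep and -0.99 in control sheep (both the later set), perirenal minus visceral fat was -0.99 in control sheep (early set, no longer called) and epicardial minus perirenal fat was -0.0348 in prenatal T sheep (early set).

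Comparing the depots of the same sheep removes differences between animals. MIR221 was lower in visceral than in subcutaneous fat in 8 of 8 sheep of the T cohort, with a mean log2 difference of -1.24 ± 0.36 (SD, n = 8; two-sided exact sign-flip permutation test, adjusted p = 0.0109 over 7 depot pairs). The difference was -1.97 ± 0.26 for epicardial minus subcutaneous fat and -2.21 ± 0.53 for perirenal minus subcutaneous fat, both with 8 of 8 sheep lower (SD, n = 8; exact test, adjusted p = 0.0109 each). Epicardial fat was lower than visceral fat in 8 of 8 sheep, with a mean difference of -0.73 ± 0.40 (SD; exact test, adjusted p = 0.0109), and the sheep nearest to 0 had -0.0479. Perirenal fat was lower than visceral fat in 7 of 8, with a mean difference of -0.98 ± 0.74 (SD; exact test, adjusted p = 0.0182), and prenatal T sheep 48 was the exception. Epicardial minus perirenal fat gave 0.25 ± 0.49 (SD, n = 8; exact test, adjusted p = 0.195), with 5 sheep higher and 3 lower. The unadjusted p of 0.0078 behind the lowest of these is the smallest that 8 sheep allow. In 5 of 8 sheep the depots ran subcutaneous, visceral, epicardial, perirenal from high to low, in 2 the last pair was swapped, and in sheep 48 perirenal came before visceral fat.

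**Figure D2:**
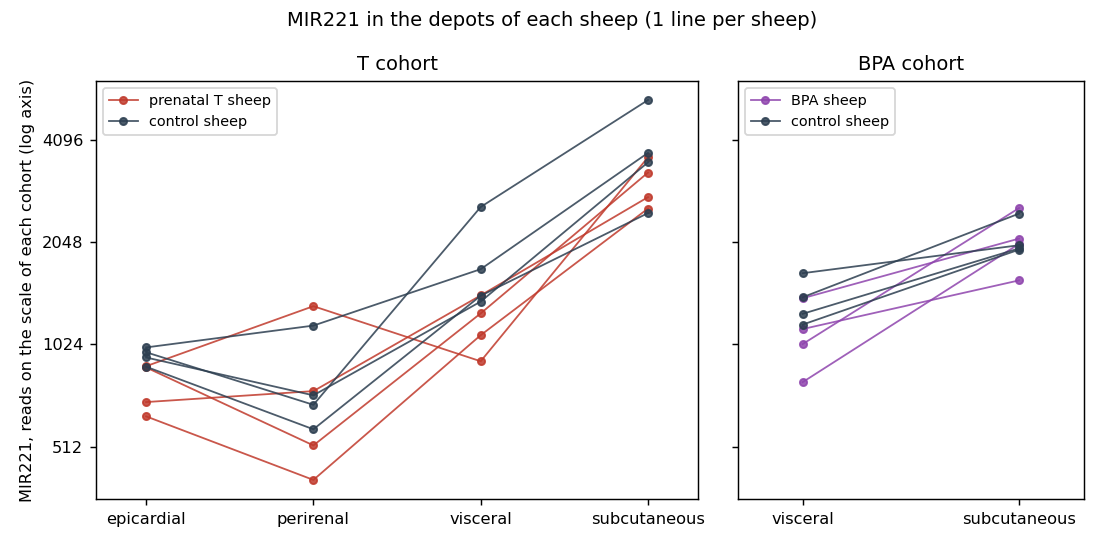
MIR221 in reads on the scale of each cohort (log axis), with 1 line per sheep through its depots. Each of the 16 lines ends highest at subcutaneous fat, and 7 of the 8 T-cohort lines are lower in perirenal than in visceral fat.

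The BPA cohort gave the visceral and subcutaneous comparison in other sheep. Visceral fat held 1398, 1135, 792 and 1025 rescaled reads in BPA sheep 910, 918, 977 and 984, and subcutaneous fat of those sheep held 2095, 1578, 2021 and 2576. In control sheep 902, 908, 924 and 928, visceral fat held 1258, 1170, 1408 and 1657, and subcutaneous fat held 1960, 1944, 2482 and 2003. The depots did not overlap within either treatment group. The log2 fold change was -0.93 in BPA sheep (SE 0.21, adjusted p = 0.00324), with 44.6% of 74 microRNAs called, and -0.62 in control sheep (SE 0.23, adjusted p = 0.0579), with 24.3% called. With sheep as a block the control comparison passed the threshold at the same fold change (adjusted p = 0.0326). The control comparison stayed uncalled by edgeR (adjusted p = 0.108) and on the CPM scale (limma adjusted p = 0.106). It also stayed uncalled without any 1 of the control sheep (limma adjusted p 0.0734 to 0.227). Within the later set of libraries the value in BPA sheep was -0.96 (adjusted p = 0.00803). Control sheep had 1 early and 3 later subcutaneous libraries, and 3 early and 1 later visceral ones. That left too few libraries for a control fit within 1 set. Within sheep MIR221 was lower in visceral fat in 8 of 8, with a mean log2 difference of -0.77 ± 0.39 (SD; exact sign-flip permutation test, adjusted p = 0.0109). Levels of the 2 cohorts were scaled apart and are not compared here.

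**Figure D3:**
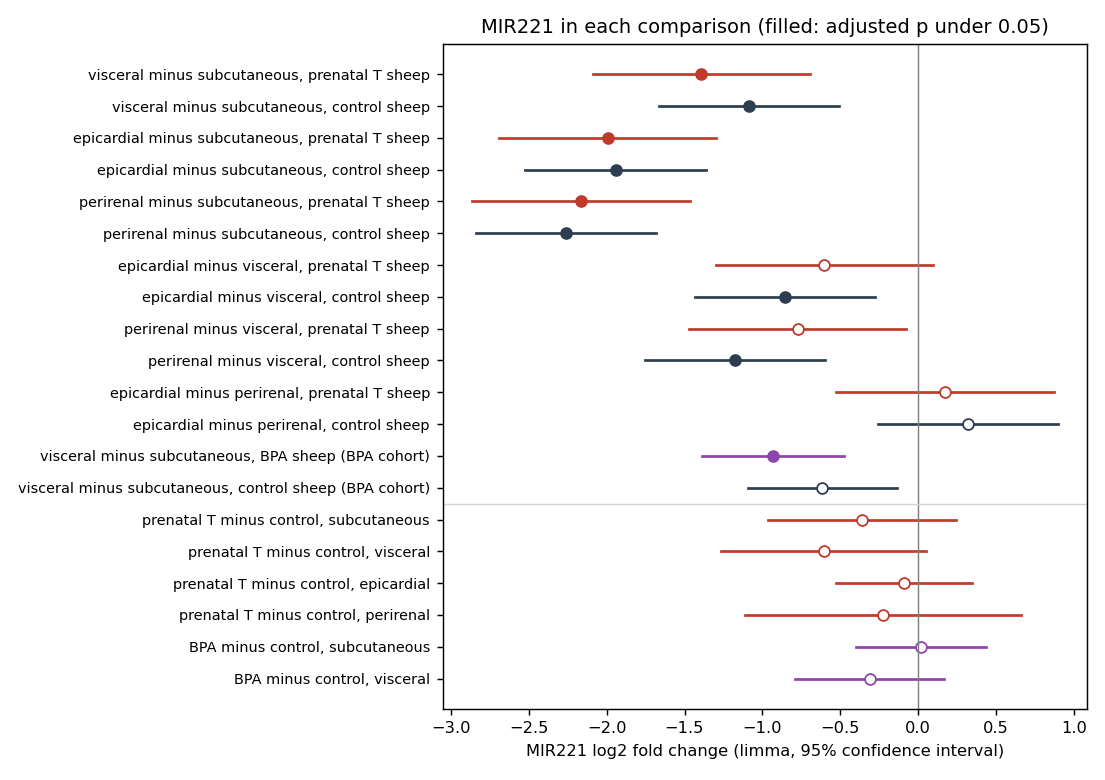
MIR221 log2 fold changes with 95% confidence intervals from limma, for the depot comparisons (upper part) and the treatment comparisons (lower part), prenatal T or BPA sheep above control sheep. Filled points passed an adjusted p of 0.05. The comparisons with subcutaneous fat lie between -2.26 and -0.62, while the 6 treatment intervals all include 0.

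On the scales that span depots, rescaled and CPM, the order of the depot means was the same, with subcutaneous fat highest. The deposited values were scaled within each depot and cannot rank depots, and are given beside them only to show the effect of that scaling. As deposited, T-cohort means over 8 sheep were 1069 ± 122.2 in epicardial, 1184 ± 468 in perirenal, 817 ± 286 in visceral and 3003 ± 836 in subcutaneous fat (SD), with visceral fat lowest. Rescaled over the cohort they were 858 ± 132, 767 ± 318, 1472 ± 512 and 3420 ± 921 in the same order of depots (SD, n = 8 each). As CPM, the reads scaled to a common total of microRNA reads, they were 1693 ± 337, 1281 ± 465, 2040 ± 642 and 4729 ± 1114 (SD, n = 8 each). Between the deposited and the cohort scale, the log2 shift (deposited minus cohort scale) averaged 0.32, 0.63, -0.85 and -0.19 in epicardial, perirenal, visceral and subcutaneous fat. Epicardial minus visceral fat became 0.71 in prenatal T sheep and 0.19 in control sheep on the deposited scale, and perirenal minus visceral fat 0.70 and 0.31 in those groups, none of them called by limma. Within sheep, epicardial minus visceral fat was 0.45 on the deposited scale. These deposited differences include the shift between the depot scales, so they do not test MIR221 between depots. On the CPM scale epicardial minus visceral and perirenal minus visceral fat kept their direction in control sheep but lost the call (-0.26, limma adjusted p = 0.525, and -0.93, limma adjusted p = 0.0843). The let-7 microRNAs, which fill a large share of these libraries, took a median of 49.8% of microRNA reads in epicardial, 47.4% in perirenal, 69.5% in visceral and 55.8% in subcutaneous fat; their part in the CPM values was not tested.

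**Figure D4:**
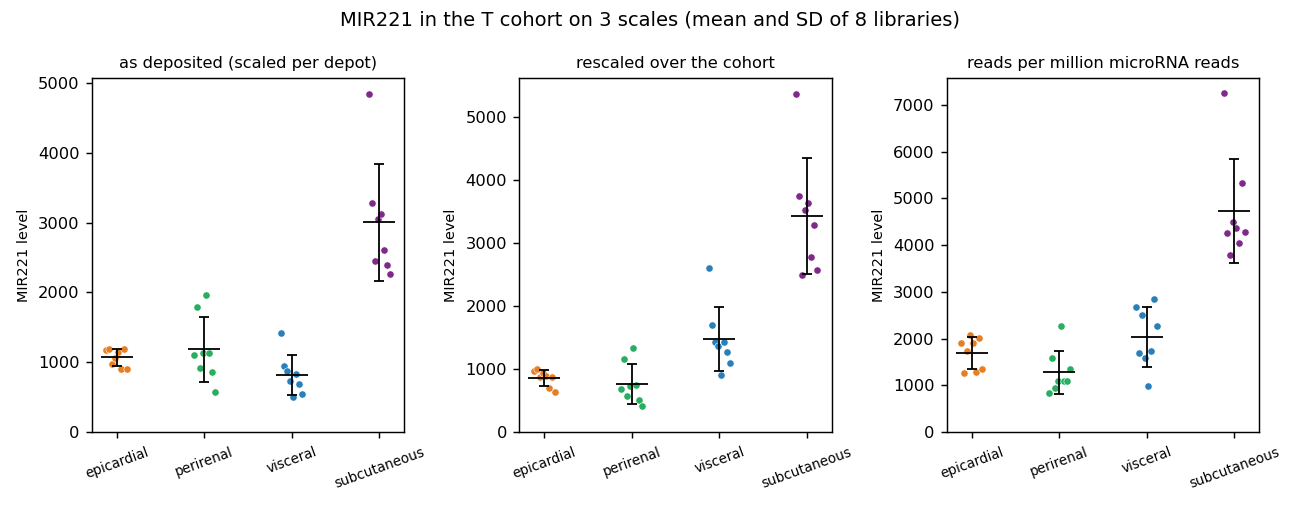
MIR221 in the 32 libraries of the T cohort on 3 scales, by depot, with the mean and SD of 8 libraries. Subcutaneous fat is highest in each panel. Visceral fat is second highest on the cohort and CPM scales, at 1472 and 2040. It is lowest, at 817, as deposited, a scale set within each depot that cannot rank depots.

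Neither treatment gave a called change of MIR221 in any depot. In deposited values, visceral fat of prenatal T sheep held 505, 831, 685 and 551, against 1419, 940, 877 and 731 in control sheep. All but 1 of the prenatal T libraries lay below every control library, and the groups overlapped through sheep 185. The log2 fold change was -0.61 (95% interval -1.26 to 0.05, limma adjusted p = 0.477), and an exact permutation test gave p = 0.0571 (two-sided, adjusted p = 0.343 over 6 comparisons), where the smallest p that 4 against 4 libraries allow is 0.0286. On the CPM scale the log2 fold change was -0.17. Subcutaneous fat of prenatal T sheep held 3120, 2607, 2388 and 2261, against 4849, 3285, 2456 and 3059 in control sheep, a log2 fold change of -0.36 (95% interval -0.96 to 0.24, limma adjusted p = 0.997; exact p = 0.171, adjusted 0.343), and -0.0946 on the CPM scale. Of the prenatal T libraries 2 lay below every control library and 2 in the lower part of the control range. Epicardial fat of prenatal T sheep held 1149, 910, 1186 and 906, against 1170, 1189, 980 and 1061 in control sheep, with a log2 fold change of -0.09 (95% interval -0.53 to 0.34, limma adjusted p = 0.774; exact p = 0.514, adjusted 0.771). On the cohort scale it was -0.31 (exact permutation p = 0.0571, adjusted 0.229 over 6 comparisons), with 3 of the 4 prenatal T libraries below every control library. Perirenal fat of prenatal T sheep held 1968, 1128, 859 and 577, against 1102, 1786, 919 and 1131 in control sheep, with a log2 fold change of -0.22 (95% interval -1.11 to 0.66, limma adjusted p = 0.793; exact p = 0.657, adjusted 0.789). Prenatal T sheep supplied both the highest and the lowest perirenal library.

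In the BPA cohort, visceral fat of BPA sheep held 1236, 1061, 723 and 1057 deposited units, against 1122, 1098, 1281 and 1507 in control sheep. The log2 fold change was -0.31 (95% interval -0.79 to 0.17, limma adjusted p = 0.84; exact permutation p = 0.143, adjusted 0.343), and 3 of the 4 BPA libraries lay below every control library. Subcutaneous fat of BPA sheep held 2340, 1879, 2050 and 2839, against 2283, 1922, 2803 and 1980 in control sheep, and these groups covered the same range, with a log2 fold change of 0.02 (95% interval -0.40 to 0.43, limma adjusted p = 0.949; exact p = 0.857, adjusted 0.857). Within 1 library set the log2 fold change for prenatal T was -0.40 in subcutaneous (early), -0.62 in visceral (later), 0.0897 in epicardial (later) and -0.26 in perirenal fat (early), and that for BPA was -0.0519 in subcutaneous fat (later), so that 2 of these 5 changed sign. For BPA in visceral fat no set held enough libraries. Within the 8 groups that held both sets, later minus early libraries ran from -0.209 to 0.414 on the log2 scale, 4 of them positive. Of the 6 pooled fold changes 5 were negative on the deposited scale and 6 on the cohort scale, and control sheep of a cohort are shared by its comparisons.

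Over all microRNAs limma called 0% in each of the 6 treatment comparisons. Unadjusted p-values under 0.05 numbered 2 of 71, 4 of 76, 20 of 85 and 7 of 86 for prenatal T in subcutaneous, visceral, epicardial and perirenal fat, and 6 of 71 and 4 of 76 for BPA in subcutaneous and visceral fat. On recovered reads edgeR called 2 microRNAs for prenatal T in subcutaneous fat and 0 in the other 5 comparisons. DESeq2 called 1, 10 and 1 for prenatal T in visceral, epicardial and perirenal fat and 0 in the other 3 comparisons, with MIR221 called by neither tool. Whether the treatment effects differ between depots was tested too: for prenatal T the effect in subcutaneous fat minus the mean of the other depots was 0.09 (SE 0.34, limma adjusted p = 0.989), and for BPA the effect in visceral minus that in subcutaneous fat was -0.32 (SE 0.29, limma adjusted p = 0.827). No microRNA passed in either test (0%), with 2 of 80 and 1 of 73 unadjusted p-values under 0.05, and edgeR and DESeq2 called 0.

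LOC105605445, the lncRNA row that spans MIR221, had more reads than MIR221 in every library, at 1.13 to 1.56 times the MIR221 reads (median 1.28). The ratio was nearly constant in subcutaneous fat of the T cohort, at 1.26 ± 0.0144, and more variable in visceral fat, at 1.35 ± 0.137 (SD, n = 8 each). If each MIR221 read is also counted for the lncRNA, which the sources used here do not state, the excess is RNA from that locus other than the MIR221 row. On the cohort scale the excess averaged 252 ± 87.2 in epicardial, 236 ± 106.4 in perirenal, 544 ± 397 in visceral and 874 ± 247 in subcutaneous fat (SD, n = 8 each). Within sheep the log2 difference from subcutaneous fat was -1.83 ± 0.49 for epicardial and -1.96 ± 0.54 for perirenal fat, lower in 8 of 8 sheep each, and -0.92 ± 0.70 for visceral fat, lower in 7 of 8 (SD; exact sign-flip permutation test, adjusted p = 0.0182 each over 7 pairs). In the BPA cohort visceral minus subcutaneous fat gave -0.64 ± 0.39, lower in 7 of 8 sheep (SD; exact test, adjusted p = 0.0182). This readout was chosen after its values were seen, shares its libraries and size factors with MIR221, and the source of the excess reads was not tested.

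**Figure D5:**
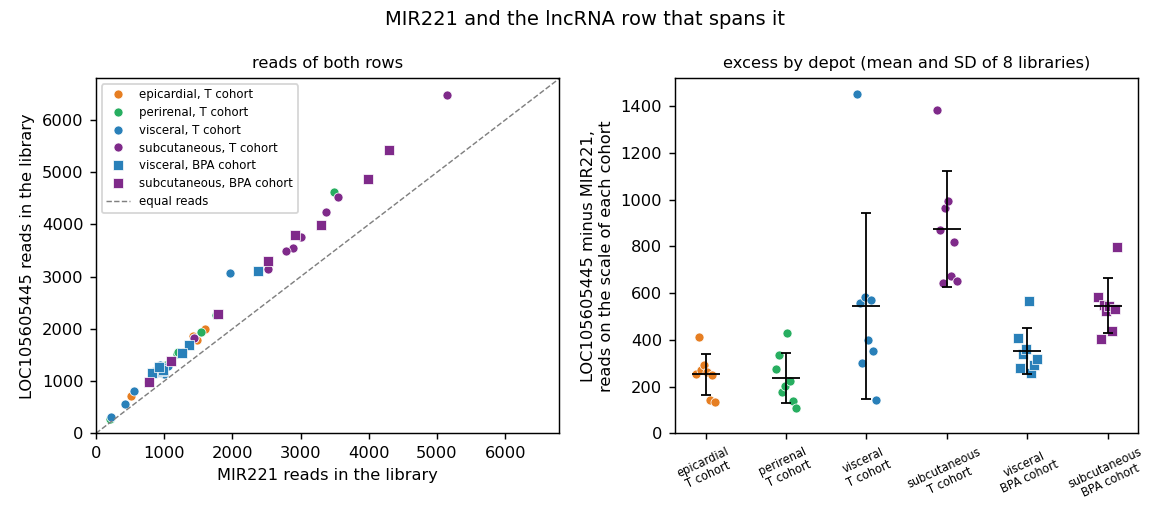
Left, reads of LOC105605445 against reads of MIR221 in each of the 48 libraries, coloured by depot and shaped by cohort, with a dashed line of equal reads. Right, the excess of the lncRNA reads over the MIR221 reads on the scale of each cohort, with the mean and SD of 8 libraries. Every library lies above the line of equal reads, and the excess is highest on average in subcutaneous fat, at 874 in the T cohort.

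The microRNAs whose levels followed MIR221 most closely over the 32 libraries of the T cohort were MIR23A, MIR103, MIR23B, MIR30D, MIR106B and MIR107, out of 79 set against it. Their Pearson r of log2 levels was 0.86, 0.83, 0.72, 0.71, 0.62 and 0.59, where the median microRNA had -0.11, and over the 16 libraries of the BPA cohort it was 0.77, 0.48, 0.53, 0.29, 0.36 and 0.43. MIR23A, which belongs to a cluster with MIR27A, averaged 5028 ± 480 rescaled reads in epicardial, 4552 ± 1285 in perirenal, 5794 ± 1043 in visceral and 13308 ± 2509 in subcutaneous fat of the T cohort (SD, n = 8 each). MIR103, known in mouse for its effect on insulin sensitivity, averaged 591 ± 74.7, 701 ± 108.4, 755 ± 149 and 1740 ± 408 in that order of depots (SD, n = 8 each). Both averages were highest in subcutaneous fat, but both microRNAs were chosen by their likeness to MIR221 over these same libraries. With the group means removed, r was 0.30 for MIR23A, 0.19 for MIR103, 0.28 for MIR23B, 0.07 for MIR30D, 0.37 for MIR106B and -0.06 for MIR107. The highest such r of any microRNA was 0.50, for MIR16B. The libraries share sheep and size factors, and on the CPM scale r was 0.78, 0.74, 0.54, 0.51, 0.41 and 0.41 in the order above. MIR23A and MIR23B, and likewise MIR103 and MIR107, are near-identical in sequence in human, so reads could be split between them in counting.

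Least like MIR221 on the cohort scale were MIR411A, MIR369 and MIR495, all from the imprinted DLK1-DIO3 region, with r of -0.76, -0.80 and -0.83 over the T cohort and -0.62, -0.36 and -0.69 over the BPA cohort. MIR495 averaged 56.3 ± 15.9 in epicardial, 79.3 ± 59 in perirenal, 48.5 ± 22.3 in visceral and 14.3 ± 3.53 in subcutaneous fat of the T cohort, in rescaled reads (SD, n = 8 each). On the CPM scale r was -0.38, -0.50 and -0.58 for MIR411A, MIR369 and MIR495, and MIR382 (-0.65) and MIR543 (-0.63), named after their values were seen, lay lower. With group means removed, the cohort-scale r with MIR221 was -0.57, -0.32 and -0.32 for MIR411A, MIR369 and MIR495.

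Of 27 microRNAs listed as restraining adipocyte formation, mostly from work in mouse and human cells, 11 are rows of these tables, and all 11 were tested: MIR221, MIR22, MIR27A, MIR369 and 7 let-7 genes. The 10 other than MIR221 are described here beside all microRNAs tested. In visceral minus subcutaneous fat of prenatal T sheep 0 of the 10 passed, where 22% of all microRNAs did, and their median was -0.22 beside 0.23 over all. In control sheep of the T cohort 2 passed, where 36.4% of all did, with a median of 0.135 beside 0.146. MIRLET7I (-0.85, SE 0.28, adjusted p = 0.0245) was lower and MIR369 (1.57, SE 0.46) was higher. MIR369 was near the floor, with a mean of 2.71 rescaled reads in subcutaneous and 10.1 in visceral fat of these sheep. The first is below the mean of 5 required over the whole fit, which MIR369 met only through the other depots. No p-value is therefore given for MIR369, and its calls against subcutaneous fat of these sheep carry little weight. In BPA sheep 1 passed, where 44.6% of all did: MIR27A (-0.97, SE 0.23, adjusted p = 0.00479) was lower, with a median of -0.26 beside -0.14. In control sheep of the BPA cohort 3 passed, where 24.3% of all did: MIRLET7I and MIR27A were lower and MIRLET7B was higher, with a median of 0.02 beside -0.02.

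In epicardial minus subcutaneous fat 1 of the 10 passed in prenatal T sheep (MIR369, higher), where 25.6% of all microRNAs did. In control sheep 3 passed (MIRLET7I and MIR22 lower, MIR369 higher from a subcutaneous mean of 2.71 rescaled reads), where 50.6% of all did. In each group 9 of the 10 had a negative log2 fold change, but most of the 10 are let-7 genes and may not vary independently. Medians were -0.743 beside 0.155 over all in prenatal T sheep and -0.485 beside -0.194 in control sheep. In perirenal minus subcutaneous fat 1 passed in prenatal T sheep (MIR369, higher), where 18.3% of all did. In control sheep 2 passed (MIRLET7F higher, and MIR369 higher from the same subcutaneous mean of 2.71), where 28.6% did. Medians of the 10 were -0.457 beside 0.161 in prenatal T sheep and -0.204 beside 0.0195 in control sheep. No member of the list passed in any treatment comparison. In those of the T cohort the largest changes included MIR369, with 1.55 in subcutaneous fat (SE 0.38) and 1.43 in perirenal fat (SE 0.55, limma adjusted p = 0.427). In subcutaneous fat MIR369 averaged 2.71 rescaled reads in control and 11.2 in prenatal T sheep. It met the required mean of 5 there only through prenatal T sheep, so no p-value is given for that change.

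The opposite list holds microRNAs known to promote adipocyte formation. Of 20 named, 15 rows were tested, where MIR181A-1 and MIR181A-2 are copies of 1 named microRNA. Visceral minus subcutaneous fat had 1 lower in prenatal T sheep (MIR103, -1.46, SE 0.27, adjusted p = 0.0028) where 7.32% of all microRNAs tested were called lower, and 5 lower in control sheep of the T cohort (MIR17, MIR21, MIR103, MIR107 and MIR30D), where 14.3% of all were, with none higher. Among these MIR17, of a cluster that drives proliferation, had the lowest value, at -1.42 (SE 0.35, adjusted p = 0.00523). In the BPA cohort 4 were lower in BPA sheep (MIR26B, MIR30B, MIR21 and MIR199A), where 16.2% of all were, and 3 in control sheep (MIR26B, MIR17 and MIR21), where 9.46% of all were, with none higher. List medians were -0.25, -0.54, -0.34 and -0.34 in prenatal T sheep, T-cohort control sheep, BPA sheep and BPA-cohort control sheep, beside 0.23, 0.15, -0.14 and -0.02 over all microRNAs tested. Epicardial minus subcutaneous fat had 2 lower in prenatal T sheep and 6 in control sheep, with none higher. Of all microRNAs tested there, 7 of 82 were called lower in prenatal T sheep and 15 of 77 in control sheep. Perirenal minus subcutaneous fat had 2 lower in prenatal T sheep, and 4 lower and 1 higher (MIR143) in control sheep. Of all tested there, 6 of 82 were called lower and 9 higher in prenatal T sheep. In control sheep 8 of 77 were called lower and 14 higher. No member passed in a treatment comparison. Both lists were drawn up with earlier results of these data known, so that their directions are not independent evidence.

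The cells behind these levels cannot be resolved in bulk tissue, where fewer cells of a type and less RNA per cell cannot be told apart. Of 24 microRNAs that mark cell types 6 are rows here, and no marker of endothelium or of adipocytes is among them, so that the labelled tissue itself could not be checked by its own markers. MIR143, used here for smooth muscle, is also on the list of those that promote adipocyte formation. In rescaled reads of the T cohort, MIR133 of striated muscle ranged from 173 to 11950 in epicardial, 85.2 to 1584 in perirenal, 57.7 to 1606 in visceral and 80.8 to 774 in subcutaneous fat. The 3 MIR200 genes of epithelium and mesothelium together ranged from 26.9 to 82.5, 12.1 to 60.8, 4.15 to 202.7 and 6.64 to 38.9 in that order of depots. MIR150 of lymphocytes had medians of 2882, 2446, 4122 and 2422, and MIR143 of smooth muscle 12220, 69643, 21761 and 26630. The medians of MIR133 were 1738, 201, 150 and 233, and those of the MIR200 genes together 46.8, 15.2, 123 and 12.3, in the same order. In the BPA cohort the medians were 115 in visceral and 121 in subcutaneous fat for MIR133, 183 and 47.8 for the MIR200 genes, 2508 and 2340 for MIR150, and 21736 and 19568 for MIR143, so that MIR133 alone was higher in subcutaneous fat. Their part in the MIR221 levels was not tested.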

How the data were processed

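Small RNA libraries were made from total RNA of adipose tissue with the NEBNext kit, per the labels' protocols. The submitters' processing notes list featureCounts 1.6.1, STAR 2.6.0c and cutadapt 3.2, while the build counted on was not given in the sources used here. Values as deposited are a signal: reads per gene divided by 1 size factor per library, which the authors computed within each depot. The deposited factors equal median-of-ratios factors over the 8 libraries of a depot. Whole reads were recovered for 100% of values (tolerance 1e-05), and cohort scales were made as median-of-ratios factors over 32 libraries (69 microRNAs) and 16 libraries (74 microRNAs). All columns were matched to samples. microRNAs with a mean of at least 5 were tested on log2(value + 1) in limma 3.58.1 under R 4.3.3, letting the spread follow the mean, with Benjamini-Hochberg adjustment over the microRNAs of a comparison, called at an adjusted p under 0.05. Fold changes are on that scale, which understates changes of low genes. Treatments were fitted on deposited values of 1 depot, depots on cohort-scaled values of 1 treatment group. edgeR 4.0.16 and DESeq2 1.42.0 on recovered reads, other scales, pseudocounts and filters, a library-set term, sheep as a block and leaving out each sheep were alternatives. The script was tested on simulated data. Labels give the sheep of each library: same-sheep libraries of different depots had a median correlation of deviations from group means of 0.147 (T cohort) and 0.183 (BPA cohort), against -0.0382 and 0.0112 for different sheep. In 72 pairs of libraries of the same group, none differed by less than sampling noise. RefSeq names (assembly ARS-UI_Ramb_v3.0) matched all 105 microRNA rows. The genes named are MIR221, the 6 microRNAs most like it and the 3 least, and members of the 2 lists that were called or had the largest changes. The gene and the lists were chosen with earlier results of these data known.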

Additional observations from a re-analysis of the deposited data

Results flagged for a closer look

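The 12 groups of 4 libraries were each searched for a library far from the others in 3 quantities: the rescaled and the deposited MIR221 level and the ratio of LOC105605445 to MIR221 reads. Of these 36 tests, which share libraries, 1 found such a library. In subcutaneous fat of control sheep of the BPA cohort, sheep 924 had 2482 rescaled MIR221 reads, and the other 3 lay between 1944 and 2003. The gap to the nearest was 0.891 of the group's range, above Dixon's 95% critical value for 4 samples. Chance alone gives about 1 such result in 20 tests.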

How the results depend on the processing

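Values are MIR221 log2 fold changes, and causes were not tested unless named. Of 430 alternative values of 29 results, 380 kept their direction and side of the threshold, among them those of epicardial and perirenal against subcutaneous fat in both groups of the T cohort. The deposited scale is set within each depot by construction and so cannot compare depots. On it epicardial minus visceral fat was 0.71 in prenatal T sheep, 0.19 in control sheep and 0.45 within sheep. Perirenal minus visceral fat was 0.70, 0.31 and 0.51 there, epicardial minus perirenal fat -0.13 in control sheep and -0.0588 within sheep, visceral minus subcutaneous fat -0.84 in BPA-cohort controls (now called), and the prenatal T effect in subcutaneous minus other depots -0.0541. On the CPM scale, epicardial minus visceral fat was -0.26 in controls and -0.22 within sheep, perirenal minus visceral fat -0.93 and -0.67, and visceral minus subcutaneous fat within sheep of the BPA cohort -0.69, all no longer called. There the prenatal T change was -0.17 in visceral fat (-0.61 in the report), -0.0946 in subcutaneous fat (-0.36) and 0.36 in perirenal fat, the BPA change in subcutaneous fat -0.24 (-0.0343 on the cohort scale) and the depot difference of the prenatal T effect -0.12. On the cohort scale the prenatal T change in epicardial fat was -0.31 (-0.09 in the report). Epicardial minus visceral fat in controls also lost its call with a pseudocount of 0.5 (-0.86), with no filter (-0.86) and by edgeR (-0.76). Fitting control and treated sheep together called epicardial minus visceral (-0.73) and perirenal minus visceral fat (-0.98) for the T cohort, and visceral minus subcutaneous fat (-0.77) for BPA-cohort controls. That last comparison was also called by DESeq2 (-0.62), with a library-set term (-0.62) and with sheep as a replicate block (-0.62). It stayed uncalled in 9 of its 14 alternatives, among them edgeR, the CPM scale and each fit without 1 sheep. The block changed no other call of MIR221. Within the early set perirenal minus visceral fat in controls was -0.99 and lost its call, and epicardial minus perirenal fat in prenatal T sheep was -0.0348. A set term, or the later set alone, gave 0.0897 for prenatal T in epicardial fat and -0.0519 for BPA in subcutaneous fat. Scaling over the libraries of the fit, added after seeing the data, changed no call.

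Leaving out each sheep in turn gave -1.54 to -1.19 (prenatal T) and -1.18 to -0.996 (control) for visceral minus subcutaneous fat, -0.959 to -0.668 for epicardial minus visceral and -1.38 to -0.924 for perirenal minus visceral fat in controls, and -0.0242 to 0.425 for epicardial minus perirenal fat in prenatal T sheep. It gave -0.537 to 0.0519 for prenatal T in perirenal fat, -0.0943 to 0.129 for BPA in subcutaneous fat, and -0.011 to 0.219 for the depot difference of the prenatal T effect. Counts of microRNAs called moved by over 1.5 times in 16 of 22 comparisons under some alternative. In prenatal T sheep they ran from 4 to 33 (18 in the report) for visceral, 10 to 48 (21) for epicardial and 8 to 40 (15) for perirenal against subcutaneous fat, 1 to 41 (2) for epicardial and 1 to 53 (1) for perirenal against visceral fat, and 2 to 20 (3) for epicardial against perirenal fat. In T-cohort controls they ran from 18 to 41 (28) for visceral and 13 to 45 (22) for perirenal against subcutaneous fat, 2 to 44 (12) for epicardial and 1 to 62 (6) for perirenal against visceral fat, and 10 to 25 (17) for epicardial against perirenal fat, and in BPA-cohort controls from 6 to 40 (18). For prenatal T, against 0, they reached 2, 1, 10 and 1 in subcutaneous, visceral, epicardial and perirenal fat. With sheep as a block 19 were called for epicardial minus visceral fat in controls, against 12, and 23 for perirenal minus subcutaneous and 7 for perirenal minus visceral fat in prenatal T sheep, against 15 and 1. Fits within 1 set were made only where each arm kept at least 2 libraries.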
